A study of Mus musculus with 12 samples.

Results

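The plasma complement and coagulation genes of isolated mouse hepatocytes were followed through liver injury in mice labelled as with or without the receptor gene Fgfr3. The members were taken from a list of 40 names, of which 39 had a row of their own among the 35709 genes of the table. C5 had none, because the mouse gene for complement component C5 is Hc, which is itself on the list. They comprise 18 complement and 21 coagulation genes, and all 39 were among the 20244 genes tested. The 12 RNA-seq libraries are from hepatocytes purified from C57BL/6J males, 8 to 10 weeks old, by liver perfusion and a Percoll step, and form 4 groups of 3. Alb-R3 CCl4 mice are labelled as lacking Fgfr3 in hepatocytes and received 0.4 mg/g of carbon tetrachloride (CCl4), a liver toxicant, in olive oil 48 h before analysis. Alb-R3 oil mice have that genotype and received the oil alone. Alb-Cre CCl4 and Alb-Cre oil mice, which express Cre recombinase from the albumin promoter, served as genotype controls for the same treatments. The labels give no further allele, do not say which exons of Fgfr3 were removed, and do not say that each library is a separate animal. The p-values therefore measure the spread between these libraries, which may be partly technical.

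Complement is a set of plasma proteins that mark and lyse microbes. The classical pathway starts from antibody through the C1 proteases, the lectin pathway from sugars through mannose-binding lectins and their proteases, and both meet the alternative pathway at C3. C5 to C9 then build a pore in the target membrane. Coagulation is a cascade of plasma proteases that ends in thrombin cutting fibrinogen to fibrin, which plasmin later dissolves. Hepatocytes make most of these proteins, and several of them, fibrinogen and C3 among them, are known as acute-phase proteins whose production rises in inflammation.

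Levels are given as the deposited normalized counts unless named otherwise. Library totals ran from 27200000 to 38800000. Totals were 27200000 to 35500000 in Alb-R3 CCl4 against 35300000 to 38800000 in Alb-R3 oil, and 28800000 to 32000000 in Alb-Cre CCl4 against 34700000 to 35500000 in Alb-Cre oil. Fgfr3 was at 477.7, 372.1 and 382.3 in the libraries labelled Alb-R3 CCl4, 523.1, 650.5 and 1109 in those labelled Alb-R3 oil, 950.9, 705.7 and 753.0 in Alb-Cre CCl4 and 734.9, 887.6 and 988.1 in Alb-Cre oil. The library labelled Alb-R3 oil replicate 3 thus had the highest Fgfr3 value of the 12, against its label, so results after oil are stated for the labelled groups. The library Alb-R3 CCl4 replicate 1 also stood apart: mitochondrially encoded genes took 32.3% of its total, against 6.22% to 12.8% in the other 11 libraries, and 11 hepatocyte markers 6.10%, against 8.05% to 11.9%. All 11 hepatocyte markers with a row were above 0 in each group. In Alb-Cre CCl4 replicate 2 the 39 genes were mostly high: it was the highest of its 3 libraries for 32 of 39 members, with a median ratio of 1.35 to the mean of the other 2. Alb-Cre oil replicate 3 was the lowest of its 3 for 28 of 39, with a ratio of 0.747.

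Before any comparison of conditions, the level of each gene per length was read from the deposited FPKM values of Alb-Cre oil, over 3 libraries. C3, the protein on which all complement pathways converge, was highest of the 39 with a mean of 4839 FPKM (4020 to 5770). Kng1 (kininogen, a contact-system cofactor) had a mean of 1693 FPKM, Fgg (the fibrinogen gamma chain) 1596 FPKM and Serpinc1 (antithrombin) 1403 FPKM. The range of Fgg (1083 to 1901 FPKM) overlapped those of Kng1 (1508 to 1869) and Serpinc1 (1354 to 1441), which did not overlap each other. At the low end stood Pros1 (protein S, an anticoagulant cofactor) with 18.6 FPKM, C6 (a pore component) with 34.0 FPKM, Masp1 (a lectin-pathway protease) with 34.5 FPKM and F11 (factor XI) with 34.6 FPKM. C6, at 18.5 to 42.2 FPKM, overlapped each of the other 3, while Pros1, at 15.2 to 21.4 FPKM, lay below Masp1 and F11, which overlapped each other. The members thus span from gene 27 to gene 3283 in the order of all genes of the table by that mean. The 39 genes had a median within-group SD of 0.286 on the log2 scale of the normalized counts. C6 varied most among replicates (SD 0.81), followed by the fibrinogen chains Fga (0.69), Fgb (0.60) and Fgg (0.59), while F12, Masp2 and Klkb1 varied least (0.12, 0.13 and 0.14).

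What CCl4 did to these genes in hepatocytes labelled as lacking Fgfr3 was asked by setting Alb-R3 CCl4 against Alb-R3 oil. Of the 39 members, 12 fell and none rose at an adjusted p under 0.05 (limma, adjusted over all 20244 genes). Among all genes tested, 17.8% passed, 6.92% lower and 10.9% higher. The 12 were 6 of 18 complement genes and 6 of 21 coagulation genes. The median log2 change was -0.58 for complement and -0.57 for coagulation, against 0.00 for all genes. The 11 hepatocyte markers had a similar median of -0.61, and 4 of them fell, so the fall was not particular to the members. The 3 CCl4 libraries lay wholly below the 3 oil libraries for 26 of 39 members, against 15.5% of all genes. F11 was the exception above, against 18.1% of all genes, and it did not pass the test. In bulk samples, fewer cells of a type and less RNA per cell cannot be told apart. As summed shares of the library, in which C3 and the fibrinogen chains weigh most, complement took 1.41% to 1.64% in Alb-R3 CCl4 against 1.54% to 1.87% in Alb-R3 oil, and coagulation 2.35% to 2.54% against 2.26% to 2.85%, so both overlapped. On the deposited FPKM values, which follow the library total, the median of all genes moved up by 0.17 and 4 of 39 members passed (C6, C8g, Klkb1 and Proc), and the members' median relative to that shift was -0.47. There, 18.1% of all genes passed, 2.69% lower. After quantile normalization 4 members also passed (C1ra, C6, C8g and Klkb1), against 16.6% of all genes (8.1% lower), and the members' median was -0.13 relative to all genes. All 12 called members were below 0 in each of the 23 other settings run, though the number that passed ranged from 4 to 17. It was 4 without Alb-R3 oil replicate 2, and 7 on leaving out any one of Alb-R3 oil replicate 1, Alb-R3 oil replicate 3 (the library with high Fgfr3) and Alb-R3 CCl4 replicate 3.

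**Figure D1:**
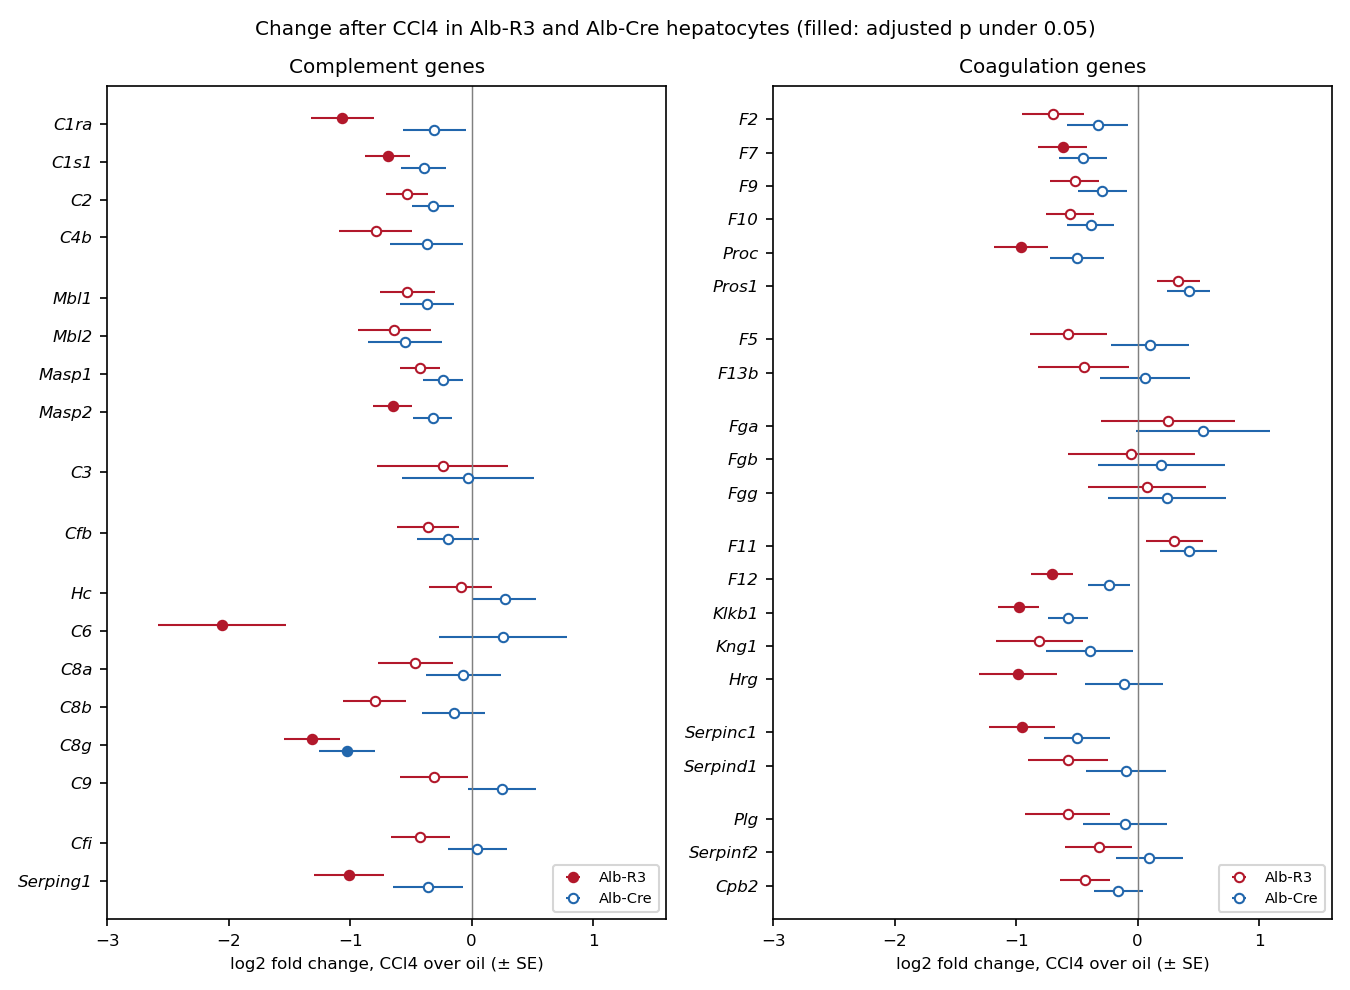
Change after CCl4 of the 18 complement and 21 coagulation genes in Alb-R3 hepatocytes (red) and Alb-Cre hepatocytes (blue), as log2 fold change of CCl4 over oil with its SE on the horizontal axis, 3 libraries per group. Filled points passed an adjusted p of 0.05: 12 genes in Alb-R3 and 1, C8g, in Alb-Cre, all on the lower side.

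In the classical pathway of complement, 2 of 4 members fell in Alb-R3 and none in Alb-Cre. C1ra and C1s1 encode C1r and C1s, the proteases of the first complement component. C1ra had 3723, 7990 and 6778 in Alb-R3 CCl4, against 11520, 14190 and 11310 in Alb-R3 oil, and the groups did not overlap. It fell by 1.07 ± 0.26 (log2, SE; limma adjusted p = 0.0132). C1s1, 6.9 kb from it on chromosome 6, had 9691, 9797 and 10370 in Alb-R3 CCl4, against 16840, 17650 and 13960 in Alb-R3 oil, and it fell by 0.69 ± 0.18 (limma adjusted p = 0.021). The CCl4 values of C1s1 were within a narrow band, and those of C1ra were lowest in the library that stands apart. The C1ra call was lost without Alb-R3 oil replicate 2 (adjusted p = 0.0567) and the C1s1 call without Alb-R3 oil replicate 1 or 2 (0.0804 and 0.0816). Both have close copies in the mouse genome, C1rb and C1s2, so how counting shared reads between them is uncertain. The same holds for C4b and its copy C4a. Over the 12 libraries C1rb was listed at up to 0.078 FPKM, against 35.1 or more for C1ra. C1s2 was at up to 0.048 FPKM, against 185 or more for C1s1. C4a was at 5.92 to 15.2 FPKM, against 492 or more for C4b. C4b (complement C4) and C2 (which together form the classical C3 convertase) had log2 changes of -0.79 and -0.53 in Alb-R3 and did not pass. C2 lay next to the threshold (adjusted p = 0.0521) and passed without Alb-Cre CCl4 replicate 2 (0.0474) or Alb-Cre oil replicate 3 (0.0334), and Cfb, its neighbour at 86 bp on chromosome 17, did not pass.

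**Figure D2:**
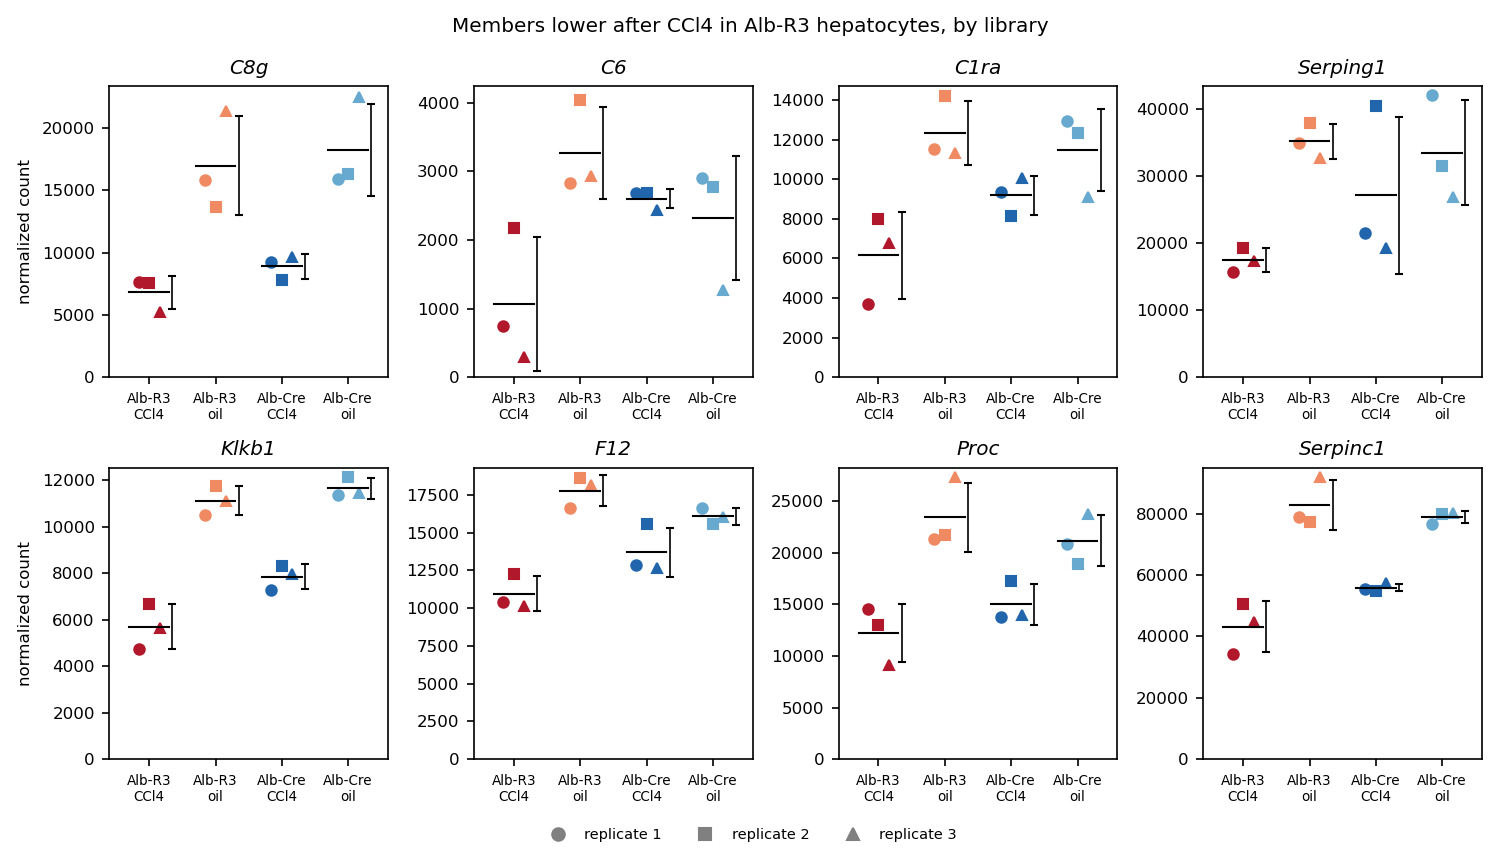
Normalized count (vertical axis) of 8 genes that were lower after CCl4 in Alb-R3, for the 12 libraries, with marker shape showing the replicate, a line for the mean and a bar for ± SD. For all 8 the 3 Alb-R3 CCl4 libraries lie below the 3 Alb-R3 oil libraries, and C6 is spread from 289.3 to 2171 in Alb-R3 CCl4.

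In the lectin pathway, Masp2, the protease that cuts C4 and C2, fell in Alb-R3. It had 6981, 6518 and 6554 in Alb-R3 CCl4, against 10300, 9924 and 11230 in Alb-R3 oil, a change of -0.65 ± 0.16 (limma adjusted p = 0.0146). The call held without replicate 1 of Alb-R3 CCl4 (adjusted p = 0.0139) and was lost without Alb-R3 oil replicate 3 (0.0518). Masp2 overlaps Tardbp on the opposite strand, which averaged 1953 against 8465 for Masp2 over the 12 libraries, and no source used here says whether counting used strand. Mbl1 and Mbl2, the 2 mouse mannose-binding lectins, and Masp1 had log2 changes of -0.43 to -0.64 in Alb-R3 and did not pass. Mbl2 was at 3896 in Alb-R3 CCl4 replicate 1 and at 11230 and 9336 in the other 2 libraries of the group, and its change was -0.17 without replicate 1. It passed without replicate 2 (adjusted p = 0.0483), while Mbl1 passed without replicate 1 (0.0469).

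At the point where the pathways meet, C3 and Cfb (factor B, of the alternative C3 convertase) did not pass: their log2 changes in Alb-R3 were -0.24 ± 0.54 and -0.36 ± 0.26. C3 is singled out here after its values were seen. It had 278400, 233900 and 188600 in Alb-R3 CCl4 and 247100, 307400 and 265300 in Alb-R3 oil, and 172700, 502700 and 239900 in Alb-Cre CCl4 and 341000, 273400 and 237700 in Alb-Cre oil. Within Alb-Cre CCl4 the value of replicate 2 was well above the others, so the 95% interval of the C3 change there, -1.20 to 1.14, was wide.

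Among the terminal genes, C8g fell in both genotypes, and in the main fit no other of the 39 members passed in Alb-Cre. With estimated library weights C2, F7 and Klkb1 also did, and without Alb-R3 CCl4 replicate 1 Klkb1 and Mbl2 did. C8g encodes the gamma chain of C8, a lipocalin-type chain of the membrane pore. It had 7612, 7541 and 5234 in Alb-R3 CCl4, against 15830, 13670 and 21360 in Alb-R3 oil, a change of -1.31 ± 0.23 (2.49-fold lower, limma adjusted p = 0.00195). In Alb-Cre CCl4 it had 9260, 7778 and 9619, against 15890, 16300 and 22490 in Alb-Cre oil, a change of -1.02 ± 0.23 (limma adjusted p = 0.0217). The groups did not overlap in either genotype. The Alb-R3 call held in all settings run, while the Alb-Cre call was lost without any of Alb-Cre CCl4 replicates 1, 2 or 3 (adjusted p = 0.0572, 0.102 and 0.0526) or Alb-Cre oil replicate 3 (0.083), and on FPKM values and after quantile normalization. C8g (chromosome 2, 25498651 to 25501719, minus strand, GRCm38) overlaps Fbxw5 on the opposite strand, which averaged 1416 against 12720 for C8g. The other chains of the same protein, C8a and C8b, neighbours 11.1 kb apart on chromosome 4, had log2 changes of -0.46 and -0.80 in Alb-R3 and did not pass. C8b lay next to the threshold (adjusted p = 0.0511) and passed without Alb-R3 CCl4 replicate 2 (0.0246) or Alb-Cre oil replicate 3 (0.0136).

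C6 gave the largest change of the 39 genes after CCl4 in Alb-R3, and the least even one. It had 743.8, 2171 and 289.3 in Alb-R3 CCl4, against 2831, 4048 and 2938 in Alb-R3 oil, a change of -2.06 ± 0.53 (4.16-fold lower, limma adjusted p = 0.0175). In Alb-Cre it had 2679, 2684 and 2444 after CCl4 and 2903, 2772 and 1275 after oil, which overlapped (0.26 ± 0.53, adjusted p = 0.866). The Alb-R3 CCl4 values were far apart from each other, and the call was lost without Alb-R3 oil replicate 2 (adjusted p = 0.067) and in the fit to the 6 samples compared alone (adjusted p = 0.0672). Of the other terminal genes, Hc and C9, which form the start and the body of the pore, had log2 changes of -0.09 and -0.31 in Alb-R3 and did not pass.

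Of the 2 complement inhibitors, Serping1 fell in Alb-R3. It encodes C1 inhibitor, which blocks C1r, C1s and the contact-system proteases. It had 15730, 19240 and 17370 in Alb-R3 CCl4, against 34900, 37860 and 32640 in Alb-R3 oil (-1.01 ± 0.29, limma adjusted p = 0.0281). In Alb-Cre it had 21520, 40490 and 19260 after CCl4 and 42070, 31520 and 26860 after oil, with CCl4 replicate 2 among the oil values. The Alb-R3 call was lost without Alb-R3 CCl4 replicate 1 (adjusted p = 0.0504), without replicate 3 (0.0641), and without any of the 3 Alb-R3 oil libraries (0.0563 to 0.0905). Cfi (factor I, which cuts C3b) did not pass (-0.42 ± 0.24).

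The coagulation genes were then taken by role. Among the 6 vitamin K-dependent genes, 2 fell in Alb-R3 and none in Alb-Cre. Proc, the precursor of the anticoagulant protein C, had 14570, 12990 and 9134 in Alb-R3 CCl4, against 21310, 21720 and 27330 in Alb-R3 oil (-0.96 ± 0.22, limma adjusted p = 0.0106). This call held in all 12 fits that left out 1 library. F7, the protease that starts the extrinsic pathway, had 3572, 2934 and 2606 in Alb-R3 CCl4, against 4214, 4460 and 5232 in Alb-R3 oil (-0.62 ± 0.20, adjusted p = 0.0495). That value lies at the threshold, and the call held in 3 of 12 fits that left out 1 library (adjusted p = 0.0544 to 0.15 in the others). F2 (prothrombin), F9 and F10 (factors IX and X) had log2 changes of -0.70, -0.52 and -0.56 in Alb-R3 and did not pass; F7 and F10 lie 1.5 kb apart on chromosome 8. The F9 change was -0.31 without Alb-R3 CCl4 replicate 1. Pros1 had log2 changes of 0.33 in Alb-R3 and 0.42 in Alb-Cre, and neither passed.

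The contact system starts the intrinsic pathway and releases bradykinin. Of the 5 genes placed under it here, 3 fell in Alb-R3: Klkb1, F12 and Hrg, the last of which is only grouped with it. Klkb1, plasma prekallikrein, had the smallest p of the 39 genes. It had 4745, 6682 and 5657 in Alb-R3 CCl4, against 10500, 11770 and 11130 in Alb-R3 oil (-0.98 ± 0.17, limma adjusted p = 0.00153), a call that held in all settings. In Alb-Cre it had 7272, 8338 and 7953 after CCl4, against 11360, 12170 and 11450 after oil (-0.57 ± 0.17, adjusted p = 0.0762), with no overlap and without passing. Without Alb-R3 CCl4 replicate 1 that Alb-Cre change passed (adjusted p = 0.0245).

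F12 (factor XII, activated on contact) had 10420, 12300 and 10150 in Alb-R3 CCl4, against 16610, 18600 and 18180 in Alb-R3 oil (-0.70 ± 0.18, limma adjusted p = 0.0147). The F12 groups did not overlap, and the call was lost without Alb-R3 CCl4 replicate 3 (0.051) or Alb-R3 oil replicate 2 (0.0551). Hrg (histidine-rich glycoprotein, which binds heparin and plasminogen) had 13640, 28680 and 23940 in Alb-R3 CCl4, against 39120, 44590 and 41490 in Alb-R3 oil (-0.98 ± 0.32, adjusted p = 0.0497). The Hrg groups did not overlap, but the call held in 2 of 12 fits that left out 1 library, and its change without Alb-R3 CCl4 replicate 1 was -0.67 (adjusted p = 0.126). Kng1, 96.2 kb from Hrg on chromosome 16, had a log2 change of -0.81 ± 0.36 in Alb-R3 and did not pass, and mouse has a close copy, Kng2, which makes its counting uncertain.

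F11 and Klkb1 lie 4.66 kb apart on the minus strand of chromosome 8 with changes of opposite sign. F11 had 3137, 2904 and 2945 in Alb-R3 CCl4 and 2269, 2539 and 2487 in Alb-R3 oil, and 2735, 2974 and 1476 in Alb-Cre CCl4 and 1979, 1904 and 1333 in Alb-Cre oil. F11 was higher in each Alb-R3 CCl4 library than in any Alb-R3 oil library, while Klkb1 was lower in each, but the F11 change of 0.30 ± 0.24 did not pass. The windows around their start sites (250 bases before to 50 after, RefSeq, GRCm38.p6, minus strand, 5′ to 3′) are shown because the genes are neighbours of one orientation; capitals mark matches, on either strand, to the C/EBP motif TTNNGNAA, a binding pattern of liver transcription factors, and the first window is chr8:45261982-45262281 and the second chr8:45294786-45295085.
F11: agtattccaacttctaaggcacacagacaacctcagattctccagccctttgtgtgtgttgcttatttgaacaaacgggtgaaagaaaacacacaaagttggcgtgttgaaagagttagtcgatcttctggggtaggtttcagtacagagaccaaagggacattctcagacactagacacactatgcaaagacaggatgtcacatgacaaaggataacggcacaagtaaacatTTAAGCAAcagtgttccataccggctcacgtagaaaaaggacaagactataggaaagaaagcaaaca
Klkb1: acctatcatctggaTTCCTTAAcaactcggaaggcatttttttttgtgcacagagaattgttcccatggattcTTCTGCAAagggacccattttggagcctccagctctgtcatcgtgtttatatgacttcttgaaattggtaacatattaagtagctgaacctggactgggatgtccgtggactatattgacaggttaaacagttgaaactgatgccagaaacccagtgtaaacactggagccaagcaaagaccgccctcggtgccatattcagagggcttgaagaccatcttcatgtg

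**Figure D3:**
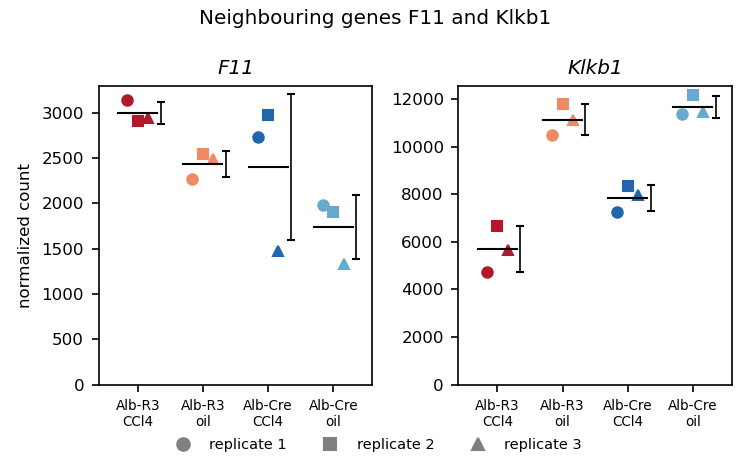
Normalized count (vertical axis) of the neighbours F11 and Klkb1 in the 12 libraries, with marker shape showing the replicate, a line for the mean and a bar for ± SD. Klkb1 lies at 4745 to 6682 in Alb-R3 CCl4 against 10500 to 11770 in Alb-R3 oil, while F11 lies at 2904 to 3137 against 2269 to 2539.

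The coagulation inhibitors and the fibrinolysis genes gave 1 call among 5. Serpinc1, antithrombin, which blocks thrombin and factor Xa, had 34200, 50730 and 44670 in Alb-R3 CCl4, against 79060, 77250 and 92090 in Alb-R3 oil (-0.95 ± 0.27, limma adjusted p = 0.0286). In Alb-Cre it had 55580, 54940 and 57300 after CCl4, against 76790, 79930 and 80270 after oil (-0.50 ± 0.27, adjusted p = 0.396); the groups did not overlap but the change did not pass. The Alb-R3 call was lost without Alb-R3 CCl4 replicate 3 (adjusted p = 0.0603) and without any of the 3 Alb-R3 oil libraries (0.0664 to 0.0877). Serpind1 (heparin cofactor II), Plg (plasminogen), Serpinf2 (the plasmin inhibitor) and Cpb2 (which protects fibrin from plasmin) had log2 changes of -0.32 to -0.58 in Alb-R3 and did not pass. The change of Serpind1 was -0.14 and that of Plg -0.34 without Alb-R3 CCl4 replicate 1. The cofactor F5 and the cross-linking subunit F13b had log2 changes of -0.57 and -0.44 in Alb-R3 and did not pass. Both rest on Alb-R3 CCl4 replicate 1, without which they were -0.18 for F5 and 0.06 for F13b.

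None of the fibrinogen chains passed in any comparison, and they are singled out after their values were seen. Fga, Fgb and Fgg encode the alpha, beta and gamma chains of 1 protein and lie side by side on chromosome 3, in the order Fgg, Fga and Fgb, with 6.51 kb between Fga and Fgb. Fga had 163000, 134300 and 109800 in Alb-R3 CCl4 and 108800, 150200 and 87410 in Alb-R3 oil, and 89680, 347400 and 108400 in Alb-Cre CCl4 and 145700, 133900 and 56330 in Alb-Cre oil. Fgb had 256700, 130900 and 104000 in Alb-R3 CCl4 and 147600, 171900 and 153500 in Alb-R3 oil, and 103300, 328900 and 112800 in Alb-Cre CCl4 and 159500, 146500 and 109500 in Alb-Cre oil. Fgg had 177000, 94580 and 80780 in Alb-R3 CCl4 and 103700, 120100 and 92280 in Alb-R3 oil, and 74120, 226100 and 80480 in Alb-Cre CCl4 and 109800, 113300 and 66010 in Alb-Cre oil. All 3 chains were highest of the 12 libraries in Alb-Cre CCl4 replicate 2, where they took 2.82% of the library, against 0.654% to 1.68% in the other 11. The acute-phase genes Saa1, Saa2, Saa3, Orm1, Orm2, Hp and Lcn2, which are not members, were also high there. Their ratios to the mean of the other 2 libraries of the group ran from 1.42 (Saa3) to 34.8 (Lcn2). In Alb-R3 CCl4 replicate 1 those ratios ran from 2.58 (Saa3) to 14.2 (Saa2). Their link to the chains was not tested. The changes in Alb-R3 were 0.25 ± 0.55 for Fga, -0.05 ± 0.52 for Fgb and 0.08 ± 0.49 for Fgg, and those in Alb-Cre 0.54 ± 0.55, 0.19 ± 0.52 and 0.24 ± 0.49; none passed. Without Alb-R3 CCl4 replicate 1 those in Alb-R3 were 0.11 for Fga, -0.43 for Fgb and -0.26 for Fgg, so the sign of Fgg turned. With intervals as wide as -0.94 to 1.44 (Fga, Alb-R3), the data do not tell a moderate rise from a moderate fall.

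**Figure D4:**
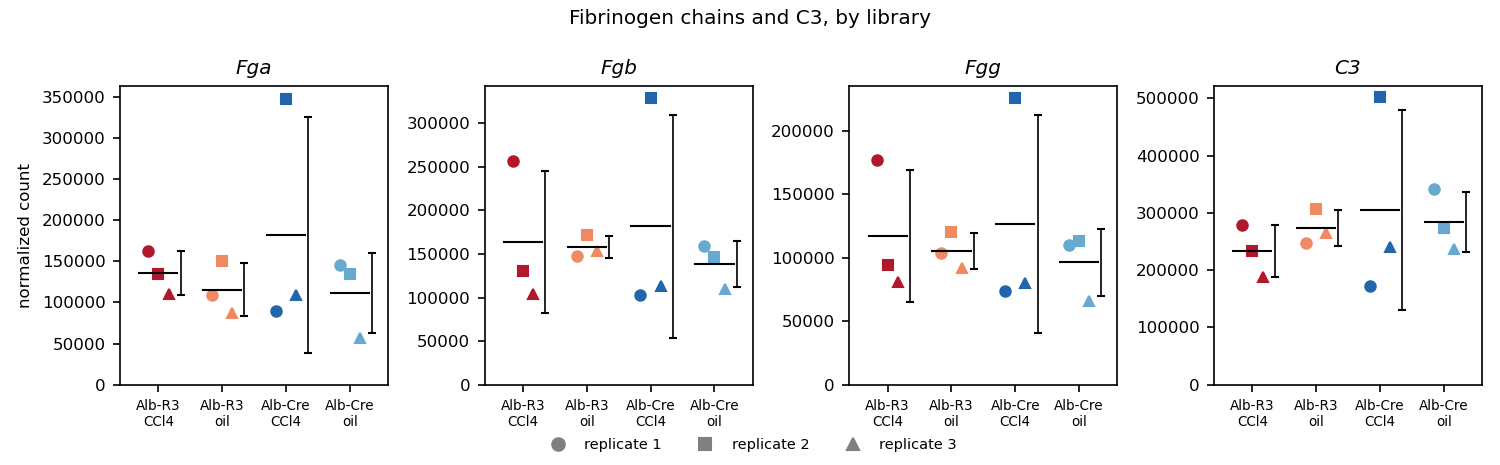
Normalized count (vertical axis) of Fga, Fgb, Fgg and C3 in the 12 libraries, with marker shape showing the replicate, a line for the mean and a bar for ± SD. Alb-Cre CCl4 replicate 2 is the highest library for all 4 genes, with 347400 for Fga, 328900 for Fgb, 226100 for Fgg and 502700 for C3.

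Windows around the start sites of the 3 chains (250 bases before to 50 after, RefSeq, GRCm38.p6, 5′ to 3′) are shown because the chains had their highest value in the same library. Capitals mark matches, on either strand, to the HNF1 motif GTTAAT, the C/EBP motif TTNNGNAA and the IL-6 response element CTGGGAA, patterns of liver and acute-phase transcription factors. The windows are chr3:83007474-83007773 (Fgg, plus strand), chr3:83025903-83026202 (Fga, plus strand) and chr3:83049814-83050113 (Fgb, minus strand).
Fgg: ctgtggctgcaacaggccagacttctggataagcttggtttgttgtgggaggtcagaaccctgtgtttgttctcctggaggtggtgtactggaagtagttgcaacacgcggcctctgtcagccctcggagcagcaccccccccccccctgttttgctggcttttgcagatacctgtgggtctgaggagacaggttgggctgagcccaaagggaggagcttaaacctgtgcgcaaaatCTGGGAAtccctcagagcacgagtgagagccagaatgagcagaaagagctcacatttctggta
Fga: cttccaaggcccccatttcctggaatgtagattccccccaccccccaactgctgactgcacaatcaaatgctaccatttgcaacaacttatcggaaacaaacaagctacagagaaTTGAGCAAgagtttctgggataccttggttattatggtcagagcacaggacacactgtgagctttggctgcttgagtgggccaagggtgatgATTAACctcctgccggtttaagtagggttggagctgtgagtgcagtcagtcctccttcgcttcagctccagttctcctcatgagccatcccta
Fgb: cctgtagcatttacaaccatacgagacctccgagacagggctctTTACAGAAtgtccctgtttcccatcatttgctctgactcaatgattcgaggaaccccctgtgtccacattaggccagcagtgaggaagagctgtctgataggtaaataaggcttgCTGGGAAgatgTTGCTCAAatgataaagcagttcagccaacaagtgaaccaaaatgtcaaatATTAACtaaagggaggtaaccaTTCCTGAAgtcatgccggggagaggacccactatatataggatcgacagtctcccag

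Of the 39 members, 30 matched a RefSeq entry, with 32 windows, and the same motifs were counted over all 32851 windows of the same length. HNF1 (GTTAAT) was in 8 of 32 member windows (25.0%), against 7.1% of all windows. C/EBP (TTNNGNAA) was in 20 of 32 (62.5%), against 40.7%. The IL-6 response element (CTGGGAA) was in 6 of 32 (18.8%), against 11.1%, and the TATA box (TATAAA) in 4 of 32 (12.5%), against 13.6%. The HNF4 motif CAAAGTCCA was in none of 32, against 0.475% of all windows. Both strands were searched, the windows of 1 gene can overlap, and a match is a description of letters and not a binding site.

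In the genotype controls, Alb-Cre CCl4 was set against Alb-Cre oil. Of the 39 members, C8g alone passed, lower, against 4.45% of all genes (0.988% lower and 3.46% higher). The median log2 change was -0.27 for complement and -0.11 for coagulation, against 0.02 for all genes and -0.24 for the 11 hepatocyte markers. The groups lay apart for 8 of 39 members, all lower, against 10.4% of all genes. The direction of the family depends on scaling here: 27 of 39 members were below 0, against 19 of 39 on FPKM values and 16 of 39 after quantile normalization. Without Alb-R3 CCl4 replicate 1, 3 passed (C8g, Klkb1 and Mbl2), all lower, against 7.22% of all genes (2.29% lower). Across the 39 members the changes in the 2 genotypes had a Pearson correlation of 0.59 and a Spearman correlation of 0.68, given as a description over genes that share libraries and depth.

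Whether the genotypes differ was asked directly in 3 ways, and none of the 39 members passed in any of them. After oil, Alb-R3 against Alb-Cre gave a median log2 difference of 0.09 and 0 calls of 39, against 0.207% of all genes, with 0 members at an unadjusted p under 0.05. F11 was the only member whose libraries lay apart, 2269, 2539 and 2487 in Alb-R3 oil against 1979, 1904 and 1333 in Alb-Cre oil (0.50 ± 0.24, limma adjusted p = 0.779), where 5.66% of all genes lay apart upward. After CCl4 the median was -0.31, with 37 of 39 below 0 and 0 calls of 39, against 0.173% of all genes, and 3 members at an unadjusted p under 0.05. For 10 of 39 the Alb-R3 libraries lay below the Alb-Cre libraries, against 5.86% of all genes. Without Alb-R3 CCl4 replicate 1 that median was -0.26, with 35 of 39 below 0. The median of the 11 hepatocyte markers was -0.41, and -0.18 without that library. For the members it was -0.07, with 24 of 39 below 0, without Alb-R3 CCl4 replicate 1 and Alb-Cre CCl4 replicate 2, a choice made after seeing the data.

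By size, C6 and F5 came first after CCl4, with F5 close to Hrg and C1ra (-0.65 and -0.64). C6 had 743.8, 2171 and 289.3 in Alb-R3 CCl4, against 2679, 2684 and 2444 in Alb-Cre CCl4 (-1.74 ± 0.53, limma adjusted p = 0.372), with no overlap; it passed only when Alb-R3 CCl4 replicate 2 was left out (-2.48, adjusted p = 0.0359). F5 (factor V, the cofactor of factor Xa) had 4505, 9473 and 10690 in Alb-R3 CCl4, against 10430, 14770 and 11420 in Alb-Cre CCl4 (-0.65 ± 0.32, adjusted p = 0.675), and its lowest value was in the library that stands apart, without which the difference was -0.26. In the interaction, the CCl4 response of Alb-R3 minus that of Alb-Cre, 0 of 39 passed, against 0.0% of all genes. The interaction was below 0 in all 39 members with a median of -0.37 (37 of 39 and -0.34 without Alb-R3 CCl4 replicate 1). The median was -0.02 for all genes and -0.31 for the 11 hepatocyte markers (-0.26 without that library). A shift below 0 was thus not particular to the members. The interaction of the members was below 0 in 35 of 39 after quantile normalization and 31 of 39 with library weights. C6 (-2.31 ± 0.75, adjusted p = 0.479) was the only member at an unadjusted p under 0.05, and Hrg was next in size (-0.87 ± 0.45, adjusted p = 0.742). The Hrg interaction was -0.56 without Alb-R3 CCl4 replicate 1, and there those of C8a (-0.65), Fgb (-0.63) and Proc (-0.60) were larger.

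Complement and coagulation were then compared with each other, as a description without a test. The score of a library is the mean over the class of log2 values, each gene centred on its Alb-Cre oil mean. Complement scored -0.65, -0.37 and -0.74 in Alb-R3 CCl4, and 0.02, 0.19 and 0.09 in Alb-R3 oil. Coagulation without the fibrinogen chains scored -0.71, -0.30 and -0.40 in Alb-R3 CCl4, and 0.03, 0.19 and 0.05 in Alb-R3 oil. Complement minus coagulation without fibrinogen was -0.35 in Alb-R3 CCl4 replicate 3 and between -0.07 and 0.06 in the other 11 libraries. The complement score keeps C6, which varied most among replicates (SD 0.81) and was lowest in Alb-R3 CCl4 replicate 3. The part of C6 in that difference was not tested. In the Alb-Cre libraries complement scored -0.32, 0.04 and -0.37 after CCl4 and 0.16, 0.07 and -0.23 after oil, and coagulation without fibrinogen -0.26, 0.10 and -0.35 after CCl4 and 0.15, 0.05 and -0.20 after oil. Over all 21 coagulation genes, complement minus coagulation was -0.16, -0.13 and -0.38 in Alb-R3 CCl4, and -0.03, -0.03 and 0.05 in Alb-R3 oil. It was -0.05, -0.25 and -0.05 in Alb-Cre CCl4, and -0.01, -0.01 and 0.02 in Alb-Cre oil. With fibrinogen counted, all 6 CCl4 libraries thus lay below all 6 oil libraries; without it, they did not. The difference of the class medians in log2 change, over the same 18 and 21 genes, was -0.01 in Alb-R3 and -0.16 in Alb-Cre. In Alb-R3 it was -0.24 without Alb-R3 CCl4 replicate 1 and ran up to 0.12 on leaving out another library.

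**Figure D5:**
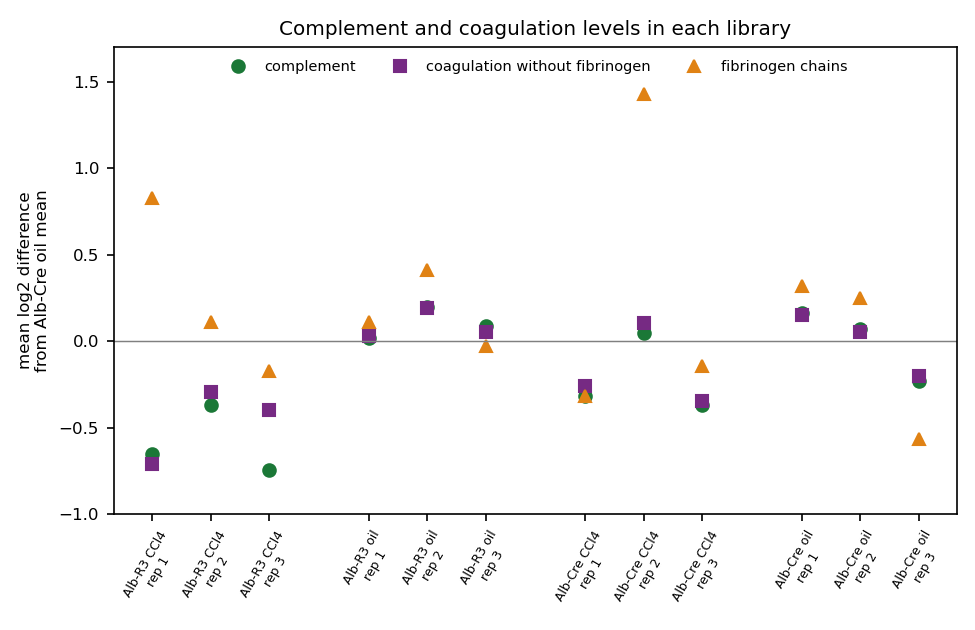
Mean log2 difference from the Alb-Cre oil mean (vertical axis) of the 18 complement genes, the 18 coagulation genes without fibrinogen and the 3 fibrinogen chains in each of the 12 libraries. The fibrinogen chains are highest in Alb-Cre CCl4 replicate 2 (1.43), and complement and other coagulation genes lie below 0 in all 3 Alb-R3 CCl4 libraries.

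Markers of other cell types moved with the Alb-R3 comparison. All 12 Kupffer cell and macrophage markers rose in Alb-R3 CCl4, where their summed share was 0.00990% to 0.0471%, against 0.00290% to 0.00375% in Alb-R3 oil, and none was at 0 in a whole group. In Alb-Cre none of the 12 passed, with 0.00604% to 0.00797% after CCl4 and 0.00451% to 0.00878% after oil. Of 10 endothelial markers 7 rose in Alb-R3 (0.0107% to 0.0148% against 0.00406% to 0.00428%) and of 10 stellate markers 9 rose (0.00390% to 0.0134% against 0.00178% to 0.00225%), with none at 0 in the whole of either group. In Alb-Cre none of the endothelial and 4 of the stellate markers rose. Endothelial shares there were 0.00905% to 0.0139% after CCl4 and 0.00673% to 0.00934% after oil. Stellate shares were 0.00666% to 0.00980% and 0.00417% to 0.00449%. For Alb-R3 against Alb-Cre after oil, the median log2 difference of Kupffer, endothelial and stellate markers was -1.03, -1.11 and -1.14. After CCl4 it was 1.51, 0.10 and 0.18, and no marker of these lists passed in either. Of 11 hepatocyte markers 4 fell in Alb-R3 and none passed in Alb-Cre. Their summed share was 6.10% in Alb-R3 CCl4 replicate 1 and 11.6% and 11.9% in replicates 2 and 3, against 8.62% to 10.2% in Alb-R3 oil. In Alb-Cre it was 11.2% to 11.8% after CCl4 and 8.05% to 10.4% after oil. Of 5 tested cholangiocyte markers 2 rose in Alb-R3, with Cftr at 0 in both Alb-R3 groups, and of 2 tested neutrophil markers none passed, with Camp and Ngp at 0 in all 4 groups. Of 7 lymphocyte markers 1 rose and of 4 tested platelet markers 1 rose. Without Alb-R3 CCl4 replicate 1, 10 of 12 Kupffer, 8 of 10 endothelial and 10 of 10 stellate markers were higher and 2 of 11 hepatocyte markers lower in Alb-R3. Their part in the results was not tested. Without the same library, 11 members passed in Alb-R3, all lower, against 16.1% of all genes (6.21% lower).

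The other genes of both systems came from lists chosen with these data known, and their counts stand beside 10.9% of all genes higher and 6.92% lower in Alb-R3, and 3.46% higher and 0.988% lower in Alb-Cre. Among 20 other soluble complement genes, 4 rose and 2 fell in Alb-R3, shares not far from those of all genes. C1qb and C1qc, chains of the C1q recognition protein that are also among the Kupffer markers above, rose by 2.41 ± 0.50 and 2.34 ± 0.46 (1.63 and 1.64 without Alb-R3 CCl4 replicate 1). Cfd (factor D, which cuts factor B) passed as lower in both genotypes and was listed at 0 in all 6 CCl4 libraries, against 2.19, 13.6 and 4.73 in Alb-R3 oil and 3.15, 9.72 and 4.77 in Alb-Cre oil, so no size is given. Of 14 receptors and membrane regulators 5 rose and 2 fell in Alb-R3: C3ar1, the C3a receptor, rose by 4.30 ± 0.82 and by 3.11 without Alb-R3 CCl4 replicate 1, where it was at 344.6 against 27.8 and 28.9 in the other 2 libraries, and Susd4, a complement inhibitor of the membrane, fell by 4.80 ± 0.52. In Alb-Cre, 1 rose and 1 fell, Cr2 (complement receptor 2) by 2.30 ± 0.55 and Cd59a, which blocks the membrane pore, by 0.94 ± 0.13.

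Of 23 other coagulation genes 4 rose and 2 fell in Alb-R3 and none passed in Alb-Cre. These shares were again not far from those of all genes. Thbd (thrombomodulin) rose by 2.75 ± 0.40 and is also among the endothelial markers above. Procr (the protein C receptor) rose by 2.43 ± 0.64. Procr, and Cr2 and Plat in Alb-Cre, were at 0 in 2 of 3 oil libraries, so their sizes depend on the pseudocount. Of 9 plasminogen activation genes 6 rose in Alb-R3 and 2 in Alb-Cre, with none lower. Anxa2 (annexin A2, a plasminogen receptor) rose by 5.47 ± 0.30 in Alb-R3 and 3.19 ± 0.30 in Alb-Cre, and Plat (tissue plasminogen activator) by 4.27 ± 0.60 and 3.45 ± 0.60. Of 6 vitamin K cycle genes, Calu (calumenin, an inhibitor of gamma-carboxylation) rose in both genotypes (1.15 ± 0.20 in Alb-R3, 0.76 ± 0.20 in Alb-Cre) and Vkorc1, the warfarin target, fell by 0.94 ± 0.21 in Alb-R3. Of 18 factors that control liver plasma protein genes, 3 fell in Alb-R3 and 1 in Alb-Cre: Cebpa, the factor C/EBP alpha, fell by 1.30 ± 0.30 in Alb-R3 and 1.15 ± 0.30 in Alb-Cre, and Dbp, a circadian factor, by 3.48 ± 0.98 in Alb-R3, a call lost without Alb-R3 CCl4 replicate 1 (-2.69, limma adjusted p = 0.0815). Without Alb-R3 CCl4 replicate 1, 5 of 9 plasminogen genes and 4 of 13 receptors were higher and 2 of 13 receptors lower in Alb-R3, and 3 of 6 vitamin K cycle genes were higher.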

How the data were processed

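RNA-seq of isolated hepatocytes was analysed from the table the authors deposited. Per the file headers it gives 2 measures for each gene and library, a normalized count and FPKM. Kallisto 0.44.0, edgeR and the build GRCm38.p6 are named, without a role, in the submitters' processing notes. The deposited normalized count is a scaled signal, since 69.8% to 74.6% of low values per library were whole multiples of 1 read (tolerance 0.02) and the rest were not. No count model was therefore used, and depth came to 28000000 to 39600000 estimated reads. The FPKM values of the authors served for levels per length and as an alternative.

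The main fit used limma 3.58.1 (R 4.3.3, with Python 3.11.15 for tables) on the log2 of the normalized count plus a pseudocount of 1, with a mean-variance trend and 1 coefficient for each of 4 groups, which left 8 residual degrees of freedom. A gene was tested if it reached 1 in 3 or more libraries, which 20244 did. The 5 comparisons were each adjusted over all of these by Benjamini-Hochberg. Errors of log2 changes are limma's SE. Positions are those of GENCODE M21 (GRCm38). The fit was tested on simulated data. There it called the larger changes but only a minority of the smaller ones, whose size most members do not exceed, and the rule for passing that test was loosened after its first version failed on them. A member that did not pass may therefore still differ. Replicate pairs differed by more than counting noise. All members were described by role, with full values for those that passed in any comparison and for the 2 of largest change in each. From the other lists, counts and at most 2 genes per comparison were taken. The members and lists were chosen with earlier results of these data known. Alternatives were other pseudocounts, filters and normalizations, no trend, library weights, a replicate block, a fit of each comparison's own 6 libraries, and leaving out libraries.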

Additional observations from a re-analysis of the deposited data

How the results depend on the processing

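With 3 libraries a group, precision was limited by their spread and not by depth. The number of members past the threshold with CCl4 in Alb-R3 was 12; it was 4 on FPKM columns, 4 with quantile normalization and 5 in the fit to the 6 samples compared, and 4 to 13 on leaving out 1 library (4 without Alb-R3 oil replicate 2). With library weights it was 17, and 16 without Alb-R3 CCl4 replicate 1 and Alb-Cre CCl4 replicate 2. In Alb-Cre the number was 1; it was 0 on FPKM columns and with quantile normalization, 4 with library weights, 0 to 3 on leaving out 1 library (3 without Alb-R3 CCl4 replicate 1) and 3 without that library and Alb-Cre CCl4 replicate 2, a choice made after seeing the data. After CCl4 the number that differed between genotypes was 0 to 1 on leaving out 1 library. The median of complement minus that of coagulation, -0.16 in Alb-Cre, was 0.014 with library weights, -0.20 to -0.0185 on leaving out 1 library and -0.06 without both libraries; in Alb-R3, -0.01, it was -0.15, -0.24 to 0.12 and -0.24. Between genotypes after CCl4 it was -0.0788 to 0.0727 on leaving out 1 library and -0.0915 without both, and in the interaction, 0.06, it was -0.10 with library weights, -0.0673 to 0.0616 on leaving out 1 library and -0.12 without both. The cause of these moves was not tested. Correlations of same-numbered libraries ran from -0.19 to 0.20, and those of differently numbered ones from -0.21 to 0.27. They gave no sign that the numbers pair samples, but with 3 libraries a group they cannot exclude it. With the replicate block 9 members passed in Alb-R3 and 1 in Alb-Cre.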

Other observations

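The balance of the fibrinogen chains varied between libraries. On the deposited FPKM values the ratio of Fga to Fgb was 1.04, 1.67 and 1.72 in Alb-R3 CCl4 and 1.20, 1.42 and 0.93 in Alb-R3 oil. It was 1.42, 1.72 and 1.57 in Alb-Cre CCl4 and 1.49, 1.49 and 0.84 in Alb-Cre oil. The ratio of Fgg to Fgb stayed between 1.33 and 1.72 in all 12 libraries. The 2 libraries with the lowest Fga to Fgb ratio, Alb-Cre oil replicate 3 and Alb-R3 oil replicate 3, were also the 2 lowest in the Fga normalized count. Since Fga is the numerator, a low Fga value lowers the ratio by construction.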
